A study of Mus musculus with 4 samples.

Results

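SINE-centred H3K27ac regions are the regions of the strain-enriched H3K27ac lists whose centre base lay in a short interspersed element (SINE), and they were taken as all rows whose detailed annotation named the SINE repeat class. There were 1106 of them among 11651 H3K27ac regions. The B6 list held 499 of 5525 regions and the NOD list 607 of 6126. The family named by the annotation was Alu in 476 regions, B4 in 301, B2 in 229, MIR in 76, ID in 19, Deu in 4 and tRNA in 1. Chromatin immunoprecipitation followed by sequencing (ChIP-Seq) had been carried out for H3K27ac and H3K4me3 in embryonic stem (ES) cells from C57BL/6 (B6) and from non-obese diabetic (NOD) mouse embryos, all cultured with 2i, which is a pair of MEK and GSK3 inhibitors. NOD is an autoimmune-prone strain, and B6 was the comparison strain. How many ES cell lines or embryos stood behind a library is not given in the labels. Each of the 4 combinations of strain and mark was 1 library, so no spread between replicates could be measured and no comparison below carries a test. Each list was called with the other strain's library as the background. A region in the B6 list was thus called for more H3K27ac in the B6 library, and one in the NOD list for more in the NOD library. The authors' score, own strain minus other, was still 0 or below in 8 B6 and 18 NOD regions of the whole lists. A region of the other list overlapped 9 B6 (1.80%) and 5 NOD SINE regions (0.824%), beside 1.10% and 0.996% of all regions. Both lists come from the same 2 H3K27ac libraries and hold only regions called as differing, so the ES cell identity could not be checked by the marks at its defining genes. Intervals given with shares are Wilson 95% intervals, those given with NOD to B6 ratios are exact 95% intervals from the counts, and all of them cover counting error only.

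H3K27ac (acetylation of lysine 27 of histone H3) marks active enhancers and promoters, and H3K4me3 (trimethylation of lysine 4) marks active promoters. SINEs are short retrotransposed copies of small cellular RNAs that are transcribed by RNA polymerase III from an internal promoter with an A box and a B box. The family listed as Alu holds the rodent B1 copies and the older PB1 copies, which share with the primate Alu an origin from 7SL RNA. B2 and ID elements come from transfer RNAs, B4 elements join an ID-like and a B1-like part, and MIR copies are ancient and shared by all mammals. B2 copies are known for having spread binding sites of CTCF, the factor that anchors chromatin loops, through the mouse genome.

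The sequences below show what lay at the centres of such regions. They were read from the mouse reference genome GRCm38.p6 (mm10, RefSeq) and are the plus strand. The first pair are the 16-base sequences found in the largest number of Alu-centred and of B2-centred windows of 300 bp, written on the strand that the printed Alu window carries.
Alu shared sequence: TGTAGACCAGGCTGGC
B2 shared sequence: TTGTGAGCCACCATGT
The Alu sequence, counted on either strand, was in 113 of 476 Alu windows (23.7%) against 0.873% of the windows not centred in a SINE. The B2 sequence was in 38 of 229 B2 windows (16.6%) against 0.237%. Both sequences were picked from these same windows, so these contrasts follow from the choice. The windows that follow come from the highest-scoring regions up to 1 kb wide of a list that held the feature in capitals, a choice made after the values were seen. In the Klhl8 window, which lay 20.3 kb from the start site of this gene, the capitals mark the shared Alu sequence.
B6 Klhl8 B1_Mur3 chr5:103931356-103931655: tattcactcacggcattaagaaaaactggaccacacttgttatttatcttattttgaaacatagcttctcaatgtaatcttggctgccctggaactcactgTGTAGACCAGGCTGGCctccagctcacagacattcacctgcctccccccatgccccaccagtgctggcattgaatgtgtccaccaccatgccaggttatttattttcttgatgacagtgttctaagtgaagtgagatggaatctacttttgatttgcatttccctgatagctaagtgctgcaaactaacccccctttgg
In the Tmem260 window the capitals mark a match to the CTCF core motif in a B2_Mm2 copy.
NOD Tmem260 B2_Mm2 chr14:48328785-48329084: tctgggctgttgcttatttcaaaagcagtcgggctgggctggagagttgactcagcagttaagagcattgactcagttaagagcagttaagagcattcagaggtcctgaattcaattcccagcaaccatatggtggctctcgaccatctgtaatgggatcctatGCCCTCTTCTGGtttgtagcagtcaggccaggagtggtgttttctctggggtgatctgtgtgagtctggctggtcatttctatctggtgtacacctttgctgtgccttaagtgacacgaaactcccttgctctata
In the Mafa and Kat6b windows, centred in the B4 member ID_B1, the capitals mark the half-site CAAGGTCA of the orphan receptor ESRRB.
NOD Mafa ID_B1 chr15:75751598-75751897: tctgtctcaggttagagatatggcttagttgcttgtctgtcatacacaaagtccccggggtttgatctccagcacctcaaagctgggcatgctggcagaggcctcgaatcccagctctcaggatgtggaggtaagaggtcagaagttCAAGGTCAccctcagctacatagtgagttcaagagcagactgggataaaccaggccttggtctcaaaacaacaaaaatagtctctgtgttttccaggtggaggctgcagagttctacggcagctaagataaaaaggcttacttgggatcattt
B6 Kat6b ID_B1 chr14:21462921-21463220: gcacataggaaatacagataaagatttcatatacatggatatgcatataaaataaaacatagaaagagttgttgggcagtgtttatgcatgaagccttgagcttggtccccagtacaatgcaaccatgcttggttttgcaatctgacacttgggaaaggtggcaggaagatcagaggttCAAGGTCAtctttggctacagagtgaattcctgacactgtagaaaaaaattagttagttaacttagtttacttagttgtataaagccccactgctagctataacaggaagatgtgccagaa
The window at Fcgr3, an Fc receptor gene, is shown for its B1_Mur2 copy and held no B box match, so it has no capitals.
NOD Fcgr3 B1_Mur2 chr1:171047070-171047369: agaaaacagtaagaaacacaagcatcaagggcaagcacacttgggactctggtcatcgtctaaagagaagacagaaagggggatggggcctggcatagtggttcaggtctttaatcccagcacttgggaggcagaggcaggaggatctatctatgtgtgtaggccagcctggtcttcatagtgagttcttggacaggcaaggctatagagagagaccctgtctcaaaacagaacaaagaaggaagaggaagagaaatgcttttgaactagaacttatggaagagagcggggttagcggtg
The Tmem260 region lay 117 kb from the nearest start site, and all windows printed were annotated as intergenic.

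SINEs made up a like share of both lists, but their families were not split alike between the strains. The SINE share was 9.03% of the B6 list (8.30 to 9.82) and 9.91% of the NOD list (9.19 to 10.7). The NOD to B6 ratio of SINE regions was 1.22 (1.08 to 1.37), beside 1.10 (1.06 to 1.14) for the regions without a SINE. Alu-centred regions numbered 184 in B6 and 292 in NOD, a ratio of 1.59 (1.32 to 1.92), and this interval lay above that of the regions without a SINE. The remaining SINE regions numbered 315 in each list, a ratio of 1 (0.853 to 1.17). B2 regions numbered 122 in B6 and 107 in NOD (ratio 0.877, 0.670 to 1.15), B4 regions 140 and 161 (1.15, 0.911 to 1.45), and MIR regions 43 and 33 (0.767, 0.472 to 1.24). The ratios of these 3 families could not be told apart from that of the regions without a SINE, since their intervals included it. ID regions numbered 8 and 11. Regions centred in long terminal repeat (LTR) elements had a ratio of 1.52 (1.39 to 1.67), near that of Alu. Those centred in long interspersed elements (LINEs) had 1.345 (1.13 to 1.60). Regions with no repeat at the centre had 0.983 (0.939 to 1.03), so the 1.10 of the regions without a SINE pools groups with unlike ratios. The order of the lists in their SINE share depended on the denominator: among regions centred in any repeat SINEs were 29.6% in B6 and 25.8% in NOD, and by base pairs covered they were 12.8% and 11.5%.

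Within Alu, the NOD to B6 ratio was highest in the B1_Mur and the B1_Mm and B1_Mus copies and lowest in PB1, with intervals that overlapped for most pairs. B1_Mur regions numbered 43 in B6 and 90 in NOD (ratio 2.09, 1.44 to 3.08), and the B1_Mm and B1_Mus regions 68 and 124 (1.82, 1.35 to 2.49). B1F regions numbered 26 and 35 (1.35, 0.788 to 2.33), and of these the B1F2 copies were 13 in B6 and 6 in NOD. PB1 regions numbered 47 and 43 (0.915, 0.591 to 1.41), and this interval ended just below that of B1_Mur but overlapped those of B1F and of B1_Mm and B1_Mus. The shared Alu sequence was in 45.8% of the B1_Mm and B1_Mus windows, 16.5% of the B1_Mur windows and 0 of the 90 PB1 windows, and its share was alike in both lists for B1_Mm and B1_Mus (45.6% of B6 and 46.0% of NOD windows). Among the other families, B2_Mm numbered 38 and 29 and the older B3 and B3A 84 and 78. ID_B1 was level at 42 in each list, RSINE1 numbered 35 and 42, and B4A 36 and 38. MIRc, a MIR subfamily, was in 8 B6 regions and 1 NOD region, and ID4_ in 1 and 6, counts too small to set apart from the other members of their families.

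**Figure D1:**
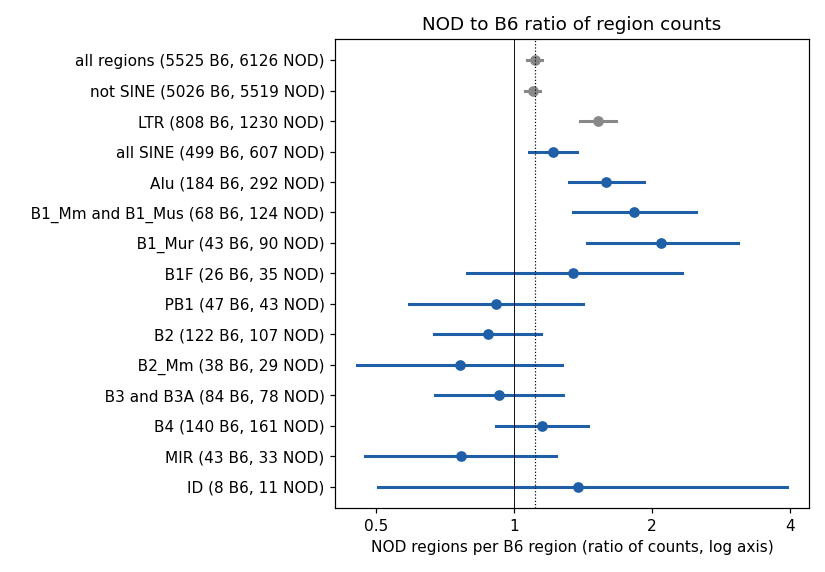
NOD to B6 ratio of region counts on a log axis, with the number of regions in each list beside each group; points are ratios, lines exact 95% intervals, the dotted line the ratio of all regions and the solid line a ratio of 1. Grey marks comparison groups and blue SINE groups. The B1_Mur and the B1_Mm and B1_Mus groups lie right of the dotted line with their whole intervals, while PB1, B2, B4 and MIR span it.

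Reads were 50 bases long, so a stretch can only be placed by its own sequence where windows of 50 bases occur once in the genome. The median SINE region had 100% of such windows unique in both lists. Every window was unique in 63.7% of B6 and 59.1% of NOD SINE regions, against 77.0% and 67.7% of the regions without a SINE. The latter pool unlike groups. LTR-centred regions had 51.4% and 38.1% and LINE-centred regions 58.3% and 51.9%, both lower than SINE regions. Regions with no repeat at the centre had 84.2% and 80.2%. Of the 4 larger SINE families, Alu had the lowest share (56.5% of B6 and 49.3% of NOD regions). It was higher in B4 (71.4% and 72.7%) and MIR (86.0% and 75.8%). Fewer than 50% of windows were unique in 2 B6 and 8 NOD SINE regions. Among regions with every window unique, the Alu ratio was 1.38 (104 B6 and 144 NOD regions, 1.07 to 1.80) and that of the regions without a SINE was 0.965 (0.922 to 1.01), an alternative chosen after seeing the data. NOD reads had been placed on a reference genome of the B6 strain, and the part of this in any count was not tested.

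The B box, read as GTTCNANNC on either strand within 300 bp at the centre, was in 35.7% of SINE windows (32.9 to 38.6) against 12.4% of windows without a SINE. It reached 71.6% in B2_Mm, 56.8% in B1_Mm and B1_Mus and 45.1% in B1_Mur, and was in 31.1% of PB1 and 18.4% of MIR windows. The looser A box pattern was in 40.2% of SINE windows and 35.6% of the others, and lay lower in Alu (28.8%) than in B2 (52.0%). The CTCF core was in 40 of 229 B2 windows (17.5%, 13.1 to 22.9) against 1.62% of windows without a SINE, and in 40.3% of B2_Mm and 8.03% of B3 and B3A windows. The CTCF share of B2 windows was 18.9% in the B6 list and 15.9% in the NOD list. A match is a description of letters and not a measured site. The B box belongs to the internal promoter of SINEs, and CTCF sites are known in B2 copies. An excess over windows without a SINE thus follows from choosing windows by their SINE. SINE copies outside the lists were not counted.

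Motifs of pluripotency factors differed less between SINE windows as a whole and the others. The ESRRB half-site CAAGGTCA was in 4.79% of SINE windows and 3.34% of the others. It was in 16 of 84 ID_B1 windows (19.0%, 12.1 to 28.7), 14.5% of MIR windows (8.28 to 24.1) and 1 of 229 B2 windows (0.437%). These windows too were chosen by their SINE, and ID_B1 and MIR copies outside the lists were not counted. Whether such copies hold the half-site as often was not tested. The KLF motif GGGTGTGG was in 5.79% of SINE windows against 3.60%, with 11.4% of the B6 (7.59 to 16.8) and 5.82% of the NOD Alu windows (3.67 to 9.13). These Alu intervals overlapped, and windows without a SINE had the same order, 4.38% in B6 and 2.90% in NOD. The octamer ATGCNAAT of POU factors was in 3.35% of SINE windows against 4.59%, and the STAT motif TTCNNNGAA in 7.96% against 9.99%. The intervals of the 4 larger families for the octamer overlapped each other.

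**Figure D2:**
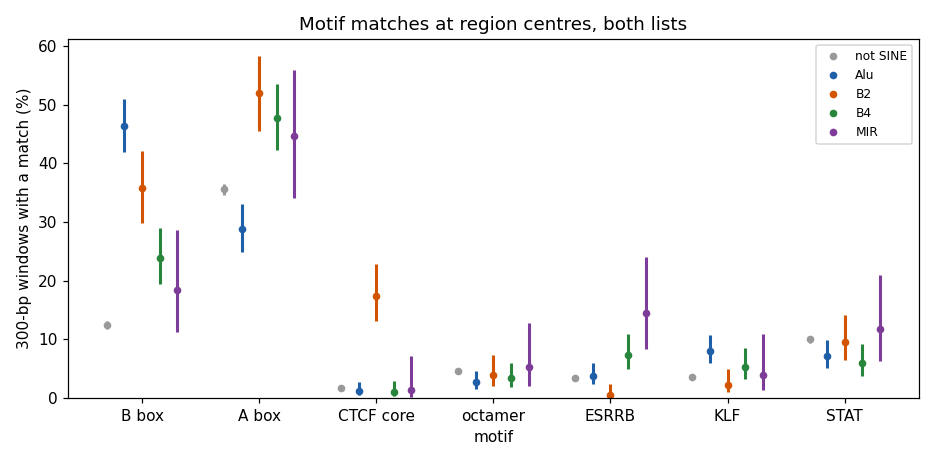
Share of 300-bp windows with a match to each of 7 motifs, in percent, for the regions without a SINE (grey) and for the Alu, B2, B4 and MIR regions of both lists together; lines are Wilson 95% intervals. The B box is highest in Alu, the CTCF core stands out in B2 at 17.5%, and ESRRB is highest in MIR at 14.5%.

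SINE regions were scored close to the other regions of their list, and a larger share of them than of the pooled other regions was wide. The authors' score subtracts the other strain's H3K27ac signal from that of the own strain, and the files do not state its scale. The median score of SINE regions was 13.6 in B6 (quartiles 9.72 and 29.3) and 12.7 in NOD (8.67 and 27.8), beside 12.7 and 13 for the regions without a SINE. The SINE median over that of the other regions was 1.07 in B6, with a 95% interval from the ranks of the SINE scores of 1.01 to 1.15, and 0.977 in NOD (0.908 to 1.05). Per kb of width these ratios were 1.01 and 1.02. Alu medians were 13 in B6 and 12.9 in NOD, B2 medians 13.7 and 12.5, and B4 medians 13.9 and 13.5. MIR medians were 18.4 in B6 and 11.1 in NOD, with quartiles of 10.5 and 36.4 in B6 and 7.89 and 38.4 in NOD, so that the lists overlapped over most of their range. The ID medians were 26.1 in the 8 B6 regions and 7.54 in the 11 NOD regions. Of the summed score of each list, SINE regions held 9.98% in B6 and 9.64% in NOD, and Alu regions held 2.81% and 4.0%.

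**Figure D3:**
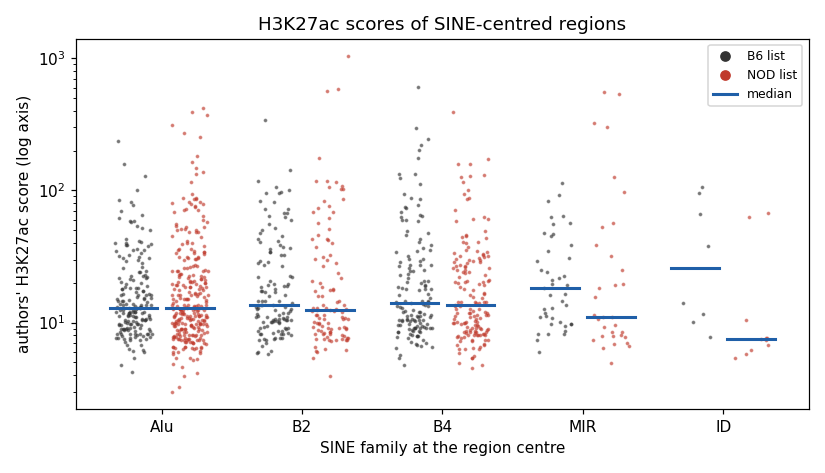
Score of each SINE-centred region by family, on a log axis, with B6 in black, NOD in red and the median of each group as a blue bar; 1 B6 and 2 NOD regions at scores of 0 or below are not drawn but count in the medians. Medians of Alu, B2 and B4 lie between 12.5 and 14.0 in both lists, and the highest point is a B2-family region of the NOD list at 1045.

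Widths fell into narrow calls and merged stretches. The smallest width of the list (262 bp in B6 and 233 bp in NOD) was that of 249 B6 and 311 NOD SINE regions, 49.9% and 51.2%. SINE regions of at least 5 kb numbered 80 in B6 (16.03%, 13.1 to 19.5) and 76 in NOD (12.5%, 10.1 to 15.4), against 8.34% and 8.84% of the regions without a SINE. LINE-centred regions had 10.2% (6.96 to 14.75) in B6 and 15.8% (12.2 to 20.25) in NOD. Both LINE intervals overlapped those of SINE regions, so a large share of wide regions was not particular to SINEs. Of the 4 larger families, B2 had the largest such share in B6 (23.0%) and in NOD (17.8%). The annotation describes the centre base alone, so for a wide region it says little of the rest of the interval. No pair of regions of the same list lay closer than 12.2 kb. Among SINE regions up to 1 kb wide the Alu ratio was 1.49 (1.21 to 1.84).

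The highest-scoring SINE region of the B6 list was a 24458-bp stretch centred in a B4A copy near Dhrs7, a short-chain dehydrogenase gene (chr12:72663992-72688450, score 603, rank 2 of 5525). It was followed by a B2_Mm2-centred region near AW549542 (score 338.5), an ID_B1-centred region in an intron of Nid1, which codes for the basement membrane protein nidogen (294.6), a B4A-centred region in an intron of the imprinted deubiquitinase gene Usp29 (243.8) and a B1_Mus2-centred region in an intron of Fkbp9, a prolyl isomerase gene (238.1). None of these 5 overlapped a B6-enriched or NOD-enriched H3K4me3 region. In the Nid1 region 70.3% of 50-base windows were unique, and in the other 4 regions between 92.5% and 98.7%. The leading MIR region of B6 lay in an intron of Magi1 (score 113.1), and the leading ID region near Capza2, a subunit gene of the actin capping protein (105.4).

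The highest-scoring region of the whole NOD list was SINE-centred. It spanned 22830 bp around a B3 copy on chromosome 2 (chr2:177057555-177080385, score 1045) and was assigned to Gm14296, whose start site lay 141 kb away. Only 32.1% of its 50-base windows were unique, so much of its sequence exists elsewhere in the reference genome. Other leading regions were centred in B3A near 3110002H16Rik (587.9), MIRb in an intron of 5330413P13Rik (551.6) and MIR 80.1 kb from the start site of A930001A20Rik (531.5). Each of these 4 NOD regions overlapped NOD-enriched H3K4me3, which came from a library 1.54 times as deep as that of B6. The leading Alu regions of NOD lay near Steap2, a metalloreductase gene (B1_Mur2, 418.9), near the monocyte surface gene Ly6c2 (B1_Mus1, 392.4) and in an intron of Xkr6 (B1_Mus2, 371.8). The Ly6c2 region was only 291 bp wide and 81.5% of its windows were unique. The leading B4 regions lay near the endothelial receptor gene Robo4 (RSINE1, 391.8), the polyamine acetyltransferase gene Sat1 (ID_B1, 173.0) and 8.17 kb upstream of the microRNA gene Mir7223 (ID_B1, 159.4).

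Super enhancers are clusters of enhancers with very high signal, and HOMER calls them where the slope of the ranked score curve exceeds 1. A slope of at least 1 with a score above the list median was found in 43 SINE regions of B6 (8.62%, 6.46 to 11.4) beside 6.91% of the whole list, and in 38 of NOD (6.26%, 4.60 to 8.48) beside 8.02%. Both list values lay inside the SINE intervals. Intronic and intergenic regions without a SINE had 7.16% in B6, inside the SINE interval, and 9.48% in NOD, above it. Of these, the regions with no repeat at the centre had 6.58% and 7.06%, inside both intervals. LTR-centred regions had 7.55% and 14.5%, and LINE-centred regions 10.6% and 11.1%. By family the SINE regions so counted were 8 B6 and 13 NOD Alu regions, 11 and 10 B2, 17 and 10 B4, 5 and 5 MIR, and 2 and 0 ID. In Alu the shares were 4.35% (2.22 to 8.34) in B6 and 4.45% (2.62 to 7.47) in NOD. In B4 they were 12.1% (7.72 to 18.6) and 6.21% (3.41 to 11.05). MIR had 11.6% (5.07 to 24.5) and 15.2% (6.65 to 30.9), from 5 regions in each list. The NOD Alu interval lay below the share of the whole NOD list, and the B6 B4 interval above that of the B6 list. The other intervals given by family included the share of their list. The SINE regions next to the threshold were those near 8430430B14Rik (slope 1.01) and Gm11715 (0.960) in B6 and near Rabgef1 (1.07) and Glrx3 (0.955) in NOD. The slope rose again at the foot of the curve, where a B1F-centred region near Hnrnpu had a score of -8.41 and a slope of 689.2, and such regions were not counted.

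H3K4me3 enriched in the same strain overlapped 19 SINE regions of B6 (3.81%, 2.45 to 5.87) beside 4.65% of the whole B6 list, and 67 of NOD (11.04%, 8.79 to 13.8) beside 9.84% of the whole NOD list, so SINE regions sat near the share of their list in each strain. Regions without a SINE that were annotated to introns or intergenic sequence, as all SINE regions were, had shares of 4.57% and 10.5%. H3K4me3 of the other strain overlapped 8 B6 SINE regions (1.60%) and 1 NOD SINE region (0.165%), beside 1.92% and 0.702% of all regions of these lists. Alu had the lowest same-strain share of the 4 larger families, 3 of 184 regions in B6 (1.63%, 0.556 to 4.68) and 23 of 292 in NOD (7.88%, 5.31 to 11.5). MIR had the highest, 4 of 43 (9.30%, 3.68 to 21.6) and 8 of 33 (24.2%, 12.8 to 41.0). The Alu and MIR intervals both overlapped those of B2 and B4 in each list, and each other in B6, so most of this order is within counting error. B2 regions with such an overlap numbered 5 and 12, and B4 regions 7 and 23. The NOD H3K4me3 library held 22750449 tags and gave 12077 regions, and the B6 library held 14791364 tags and gave 7587 regions, so the strains cannot be compared in these shares apart from depth.

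Wider regions held H3K4me3 more often. At the smallest width it was 1 of 249 SINE regions in B6 (0.402%) and 18 of 311 in NOD (5.79%, 3.69 to 8.96), against 2.32% and 3.72% of the regions without a SINE. In regions of at least 5 kb it was 9 of 80 in B6 (11.3%) and 21 of 76 in NOD (27.6%, 18.8 to 38.6), against 18.1% and 35.9%. The NOD share was higher in each wider class, while in B6 the class of 1 to 5 kb had 4 of 29 (13.8%). The SINE and other intervals overlapped in each of the 4 width classes of both lists.

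**Figure D4:**
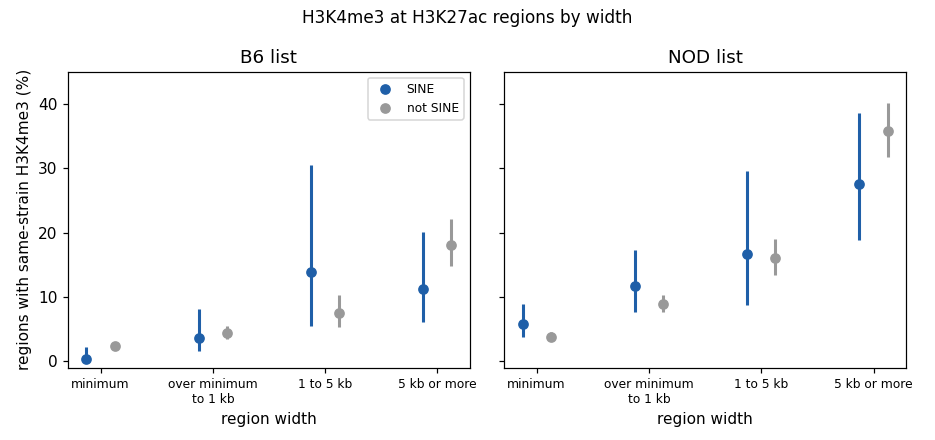
Share of H3K27ac regions that overlapped H3K4me3 enriched in the same strain, in percent, by width class, for SINE-centred regions (blue) and all others (grey), with Wilson 95% intervals. In NOD the SINE share goes from 5.79% at the smallest width to 27.6% at 5 kb or more.

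The H3K4me3 overlaps of SINE regions ranged from barely called to very strong. Tags below are counts of the 2 libraries in the H3K4me3 region, of which the NOD library was 1.54 times deeper, and calls required 4-fold more tags in the own strain after scaling. In NOD the 67 overlaps had between 17 and 1561 NOD tags with a median of 56.0, and a median of 4 B6 tags, with 14 of them at 0 B6 tags. In B6 the 19 overlaps had between 15 and 342 B6 tags with a median of 40.0. The highest count was 1561 NOD and 223 B6 tags at the region assigned to Gm14296. A B4-centred region near Bcdin3d, an RNA methyltransferase gene, was only 362 bp wide with a score of 31.1 and lay in an H3K4me3 region of 1196 NOD and 17 B6 tags. A B2_Mm1t-centred region in 4921524J17Rik had 744 and 99 tags, and a B1_Mus1-centred region in an intron of the scaffold gene Slc9a3r2 had 492 and 8. In B6 the leading overlap, with 342 B6 and 67 NOD tags, was a MIR-centred region 163 kb from the start site of 1700018B08Rik. It was followed by an ID_B1-centred region near Zc3h12a, the gene of an RNase that degrades cytokine transcripts (197 and 57). A B4-centred region in Rgs9, a regulator of G protein signalling, had 195 and 36. Of the NOD overlaps 55 and of the B6 overlaps 15 lay over 5 kb from the nearest start site. Within 5 kb lay 12 of the 67 and 4 of the 19, beside 20.1% of all NOD and 12.8% of all B6 SINE regions. Most SINE regions thus lay over 5 kb away, whether or not they overlapped H3K4me3.

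Few SINE regions lay right at start sites, by construction of the annotation. Within 5 kb their share was near that of other intronic and intergenic regions. Within 1 kb of a start site lay 4 in B6 (0.802%) and 8 in NOD (1.32%), against 10.9% and 18.3% of the regions without a SINE, since HOMER names a repeat only where the centre is not in a promoter or exon. Introns held 276 B6 and 322 NOD SINE regions and intergenic sequence 223 and 285. Within 5 kb of a start site lay 12.8% of B6 (10.2 to 16.05) and 20.1% of NOD SINE regions (17.1 to 23.5). The intronic and intergenic regions without a SINE had 13.4% and 17.8%, and those with no repeat at the centre 15.35% and 23.23%. All of these values lay inside the SINE intervals. The median distance was 21.02 kb in B6 and 14.4 kb in NOD, beside 21.1 kb and 18.2 kb for all regions without a SINE. For all regions with no repeat at the centre it was 18.7 kb and 12.3 kb.

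Few assigned genes had 2 SINE regions in a list. The 499 B6 regions were assigned to 491 genes and the 607 NOD regions to 588, and no gene had over 2 in a list. A SINE region in both lists was found at 20 genes, 4.07% of the B6 and 3.40% of the NOD genes. Such shares are not given here for all H3K27ac regions, so whether they are particular to SINE regions was not tested. Genes with 2 included Foxp1, a forkhead factor gene, with B3 and ID_B1 regions in B6 (scores 96.0 and 19.2), Sgpp1 with RSINE1 and B1_Mus2 regions (65.5 and 57.5) and Igf2bp3 with B3 and B1F regions (40.9 and 15). In NOD, Nudt4 had B1_Mur3 and B1_Mm regions (114.9 and 55.8), Larp1 B1_Mus2 and B1_Mur2 regions (75.6 and 53) and Tnfrsf19 B1_Mur3 and B1_Mus1 regions (146.7 and 10.2). B6 and NOD SINE regions lay within 10 kb of each other at 4 places, near Csrp1, Atp1b3, Fancg and Irgq. At Fancg the regions overlapped, with a B6 score of 12.8 and a NOD score of -14.79.

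SINE regions were assigned to genes of each of the 4 lists that were looked up, in numbers too small to set against the SINE share of the H3K27ac lists. Of 26 pluripotency genes, 3 had a SINE region in B6 and 1 in NOD, while 11 had any H3K27ac region in each list. In B6 these were Nr5a2, a nuclear receptor gene (B1_Mur2, score 32.5), the Kruppel-like factor gene Klf2 (ID4_, 7.83) and Mycn (PB1, 6.79). In NOD it was the zinc finger gene Sall4 (RSINE1, 29.4), whose region had 351 NOD and 16 B6 H3K4me3 tags but lay 78.7 kb from the start site. Of 21 genes that silence retroelements, 3 had a SINE region in NOD and 0 in B6: the DNA methyltransferase gene Dnmt3b (B1_Mur4, 39.7), Adnp (B1_Mur4, 11.6) and Pogz (B1_Mus1, 8.44), all in the Alu family, which held 292 of the 607 NOD SINE regions. Any H3K27ac region was found at 10 of these genes in NOD and 7 in B6. Of 21 RNA polymerase III genes, the subunit genes Polr3c (B1_Mus2, 8.90) and Polr3a (RSINE1, 6.76) had one in NOD and 0 did in B6, while any H3K27ac region was found at 2 genes in NOD and 5 in B6. In the Polr3c region 52.97% of windows were unique.

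Of 22 diabetes and immune genes, 2 had a SINE region in NOD and 0 in B6. Any H3K27ac region was found at 6 of them in NOD, with 27 regions in all, and at 4 in B6, with 6 regions. The list includes genes that the study had picked from these samples, so its count is no independent evidence. The region near Fcgr3, which codes for a low-affinity receptor of immunoglobulin G, was 233 bp wide (chr1:171047103-171047336), centred in B1_Mur2, 12.2 kb from the start site and unique in every window. Its score was 81.6, its slope 1.09, and it overlapped H3K4me3 with 63 NOD tags and 0 B6 tags. The region in an intron of Igfbp2, an insulin-like growth factor binding protein gene, was 6943 bp wide, centred in B4A, and had a score of 7.84 with no H3K4me3 overlap.

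By chromosome, NOD regions made up between 42.0% and 68.8% of the SINE regions of an autosome, with a median of 53.1%. On chromosome 6, where NOD regions were only 35.1% of all H3K27ac regions, they were 39 of 79 SINE regions (49.4%, 38.6 to 60.2). On chromosome 11 they were 44.6% of all regions and 55 of 97 SINE regions (56.7%, 46.8 to 66.1). These were the 2 of 20 chromosomes on which the SINE interval excluded the share of all regions, and about 1 in 20 is missed by counting error alone. On chromosome 8 the shares were 54.9% of SINE regions and 63.6% of all regions, and on the X chromosome 69.2% and 69.3%. Without chromosomes 6 and 8 the Alu ratio was 1.60 (1.31 to 1.96).

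**Figure D5:**
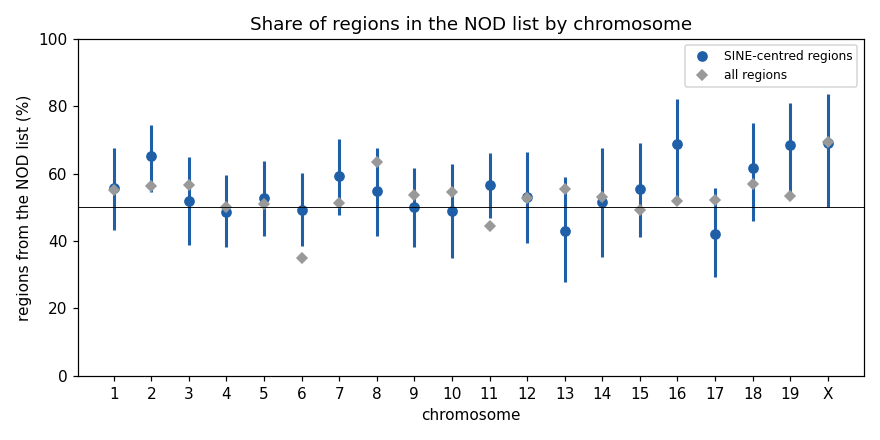
Share of regions from the NOD list by chromosome, in percent, for SINE-centred regions (blue, with Wilson 95% intervals) and all H3K27ac regions (grey diamonds); the line marks 50%. On chromosomes 6 and 11 the grey diamond lies below the blue interval.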

How the data were processed

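The authors mapped 50-base single-end reads to mm10 with bowtie2, according to the methods. The submitters' processing notes name mm9, CASAVA 1.8.2, STAR 2.2.0c and HOMER, with no roles. Of distances to start sites in the deposited files, 89.8% (B6) and 89.9% (NOD) came within 10 bp of GRCm38 RefSeq starts, so the coordinates were taken as mm10. The authors annotated H3K27ac regions with HOMER. The deposited H3K27ac score is the signal of 1 strain minus the other, and the deposited slope score of the 5 highest regions holds the region size. The deposited H3K4me3 files give a count of tags for B6 and, per the file headers, a signal scaled to the B6 library for NOD, from which whole tags were computed with the library totals. H3K27ac library totals were not given in the sources used here, beyond 25000000 to 30000000 reads per library in the labels.

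Regions overlapped where they shared at least 1 bp. Unique windows of 50 bases were counted on both strands of all reference chromosomes, and motifs were searched in 300 bp at each centre. Overlap, uniqueness, motif and interval code was tested on simulated data. Python 3.11.15, pandas 2.3.3, NumPy 2.4.6, SciPy 1.17.1 and matplotlib 3.10.9 were used. With 1 library per group no test was run. Named regions were the 5 highest scores of each list, the 3 highest of each family and by slope, the 5 with most same-strain H3K4me3 tags, those assigned to listed genes, and the 3 genes with most SINE regions, from which the text gives a selection, and some regions and sequences are not reported here. Members and gene lists were chosen with earlier results of these data known. A super enhancer also had to score above the list median, because the slope reaches 1 again at the lowest scores.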

Additional observations from a re-analysis of the deposited data

How the results depend on the processing

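No paired analysis was possible because each strain and mark had 1 library. The NOD to B6 ratios of all SINE, Alu, B2, B4 and MIR regions each stayed within the main interval under score, width, chromosome and uniqueness limits. That of regions without a SINE was 1.05 up to 1 kb wide, 1.26 at scores of at least 20, 1.01 at the smallest width and turned to 0.965 with every window unique (the last 2 chosen after seeing the data). At scores of at least 20 the SINE ratio was 1.21 (0.984 to 1.49), below that of regions without a SINE. The Alu interval there (1.30 to 2.64) overlapped that of regions without a SINE (1.18 to 1.35). With every window unique the SINE ratio was 1.13 (0.968 to 1.32), an interval that included 1. The cause of these shifts was not tested. SINE shares of B6 and NOD were 29.6% and 25.8% of repeat-centred regions and 12.8% and 11.5% of base pairs. Super enhancer shares were 5.01% and 3.30% at a slope of at least 2. H3K4me3 shares were 1.60% and 2.97% with at least 50 normalised tags, by construction lower since fewer regions were used. Within 5 kb of a start site lay 12.8% and 20.1%. Every 50-base window was unique in 78.8% and 69.85% of the central 300 bp. In 500 bp, which hold more bases, SINE shares were 45.8% for the B box, 58.5% for the A box, 6.96% for ESRRB, 6.15% for the octamer, 8.86% for KLF and 13.7% for STAT. With 1 library per strain, a difference between strains cannot be told apart from a difference between libraries.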
